A study of Mus musculus with 4 samples.

Results

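Transcripts of 31 genes of cholesterol synthesis, uptake, intracellular transport and efflux were measured in single cells of mouse dorsal epidermis. The genes were listed by symbol, and all 31 were found among the 32479 genes of the deposited tables. They comprised 19 enzymes of the synthesis pathway, 4 regulators of sterol sensing (Srebf2, Scap, Insig1 and Insig2), 5 genes of uptake, lysosomal release and transport (Scarb1, Lipa, Npc1, Npc2 and Stard4) and 3 genes of efflux and its control (Abca1, Abcg1 and Nr1h2). The study removed ceramide synthase 4 (CerS4), an enzyme that makes ceramides with long acyl chains, from the epidermis and asked how cell composition and state changed. Control mice (ctr) were CerS4 fl/fl without the K14Cre transgene, and CerS4epi-/- mice were CerS4 fl/fl with it, so that every mouse carried the floxed alleles. All 4 mice were C57BL/6N females at postnatal day 19, with 2 mice and 2 libraries per genotype and 1 library per mouse. The keratin 14 promoter that drives this Cre is active in the basal keratinocytes that give rise to the interfollicular epidermis (IFE), hair follicle and sebaceous gland, and resident T cells and Langerhans cells are not descended from them.

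Cells make cholesterol from acetyl-CoA by way of mevalonate, farnesyl diphosphate, squalene and lanosterol. When sterol in the endoplasmic reticulum is low, the escort protein Scap carries the precursor of SREBP2, encoded by Srebf2, to the Golgi, where it is cut into an active transcription factor that raises transcription of the synthesis enzymes. Insig1 and Insig2 proteins hold Scap back when sterol is plentiful, and Insig1 is itself an SREBP target. Liver X receptors such as the Nr1h2 product respond to oxysterols and raise the exporters Abca1 and Abcg1. In the epidermis, cholesterol is released together with ceramides and free fatty acids by the upper living layers and forms the lipid sheets of the cornified layer.

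The promoters of 4 members, chosen to show an enzyme near the head of the pathway, the transcription factor gene, an enzyme called in several cell clusters and the sterol-responsive regulator, are printed below on the strand of each gene and in the GRCm39 build. The sequences are RefSeq promoter windows and end before the first base of the annotated gene. Capitals mark the letters TCACNCCA, the inner letters of the sterol regulatory element, and CCAAT, the box bound by NF-Y, each searched on both strands.
Hmgcs1, chr13:120151637-120151886, plus strand: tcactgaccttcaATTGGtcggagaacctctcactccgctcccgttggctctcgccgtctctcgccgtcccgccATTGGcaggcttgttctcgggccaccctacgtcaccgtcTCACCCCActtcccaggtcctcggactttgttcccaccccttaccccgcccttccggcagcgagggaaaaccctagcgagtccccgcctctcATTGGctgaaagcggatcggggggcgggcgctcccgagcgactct
Srebf2, chr15:82031220-82031381, plus strand: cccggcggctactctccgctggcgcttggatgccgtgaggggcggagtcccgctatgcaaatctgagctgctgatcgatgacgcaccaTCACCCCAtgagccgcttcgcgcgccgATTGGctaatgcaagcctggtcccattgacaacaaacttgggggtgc
Hsd17b7, chr1:169796814-169797024, minus strand: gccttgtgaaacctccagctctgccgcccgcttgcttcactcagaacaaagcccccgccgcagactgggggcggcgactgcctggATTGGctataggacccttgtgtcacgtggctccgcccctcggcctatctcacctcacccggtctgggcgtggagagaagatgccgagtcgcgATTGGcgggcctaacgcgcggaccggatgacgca
Insig1, chr5:28276160-28276314, plus strand: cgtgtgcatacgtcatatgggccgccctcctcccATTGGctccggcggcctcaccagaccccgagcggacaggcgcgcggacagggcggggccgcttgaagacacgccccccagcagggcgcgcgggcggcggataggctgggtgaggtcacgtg

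In the 250 bases before the RefSeq start, which could be read for 24 of the 31 members, CCAAT was present on either strand in 20 (83.3%) and in 15 of the 16 synthesis enzymes (93.8%), against 37.5% of 27025 genes. TCACNCCA was present in 3 of the 24 (Hmgcs1, Msmo1 and Srebf2; 12.5%), against 4.2% of all genes. A match describes letters in this window and no binding was measured.

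The 4 libraries held 39231945 to 53106317 counts, and 7567 to 9089 cells per mouse passed the filters. The median cell held 3265 and 3322.5 counts in the ctr mice and 3348 and 3884 in the CerS4epi-/- mice, with 8.56% and 8.66% of counts mitochondrial in ctr and 9.68% and 9.94% in CerS4epi-/-. The 2 ctr libraries shared 0 cell barcodes where 87.1 were expected from random draws, and so did the 2 CerS4epi-/- libraries where 77.1 were expected, while libraries of different genotype shared 64 to 102, near the 72.5 to 92.6 expected. The 2 mice of each genotype were therefore distributed as if loaded together, and genotype cannot be told apart from anything that differed between the 2 loads. Cers4 itself (chr8:4542809-4581680) was measurable mainly in the sebaceous gland-like cluster, at 2832 and 3342 CPM (counts scaled to a fixed total in each sample) in ctr and 293 and 448 in CerS4epi-/-. It was at 115 and 76.8 CPM in ctr and 102 and 120 CPM in CerS4epi-/- in the T cell-like cluster. In the inner bulge-like cluster it was at 28.1 and 33.4 CPM against 9.83 and 8.12 CPM, and in the Klk10/Cst6-led cluster at 5.94 and 19.7 CPM against 0.674 and 2.06 CPM. The Ifitm6/Mboat2-led, Skint5/Alox12-led and F3/Serpina12-led clusters described below held at most 2 Cers4 counts in any mouse of either genotype. The gene counts do not separate the floxed exons.

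Clustering without the 31 genes gave 16 cell clusters, named after leading genes and, where markers allowed, called like a cell type. The Smoc2/Igfbp3-led cluster had the highest sum of basal keratinocyte markers, but its 10 leading genes held Col1a1, a fibroblast marker, and no basal one, so it is left unnamed. The IFE differentiated-like clusters were led by Krt1 and Mt4, by Skint5 and Alox12, and by Ifitm6 and Mboat2. The sum of 10 keratinized-layer markers separated them, at 259 to 306 CPM over the 4 mice in the Krt1/Mt4-led cluster, 376 to 722 CPM in the Skint5/Alox12-led cluster and 3941 to 6486 CPM in the Ifitm6/Mboat2-led cluster. An unnamed F3/Serpina12-led cluster, at 34438 to 44021 CPM, and a Lce1-led IFE keratinized-like cluster lay above. The upper follicle-like clusters were led by Krt79 and Cd200 and by Klk10 and Cst6, and a small cluster led by Slurp1 and Slurp2 stayed unnamed. In the Pyy/Plagl1-led cluster, also unnamed, Hbb-bs, Hba-a2, Hba-a1, Hbb-bt and Alas2 ranked ahead of Pyy and Plagl1. Its red cell markers summed to 21.6 and 22.9 CPM in ctr and 513 and 9.89 CPM in CerS4epi-/-. Its fibroblast markers summed to 3.82 and 1.68 CPM in ctr and 2.42 and 453 CPM in CerS4epi-/-. Other random starts of the clustering gave partitions with an adjusted Rand index of 0.83 to 0.934 against the one used, and all of those joined the Skint5/Alox12-led and Ifitm6/Mboat2-led clusters. Clusters were built from the same cells, so levels are compared between them as descriptions with no test. Levels are plain CPM of the counts summed over the cells of a cluster in each mouse.

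Within the IFE, transcripts of the synthesis enzymes were highest in the upper living layers, and the sebaceous gland-like cluster, described further on, was higher still. Their summed level was 3297, 3671, 4176 and 4315 CPM in the Ifitm6/Mboat2-led cluster of the 4 mice (ctr mice first, here and below). It was 2404, 2562, 2829 and 3124 CPM in the Skint5/Alox12-led cluster and 2882, 3306, 3354 and 3248 CPM in the F3/Serpina12-led cluster. In the Smoc2/Igfbp3-led cluster the sum was 595, 557, 567 and 563 CPM. The first 3 clusters exceeded the last in every mouse by a wide margin. The sum was intermediate in the Krt1/Mt4-led cluster, at 905 to 930 CPM, and was 1651 to 1729 CPM in the Lce1-led cluster. Of the 19 enzymes, 18 were higher in the Skint5/Alox12-led cluster than in the Smoc2/Igfbp3-led cluster in all 4 mice, where 28.9% of all genes compared were. The same count in the Ifitm6/Mboat2-led cluster was 18 (28.5% of all genes) and in the F3/Serpina12-led cluster 17 (27.6%). Ggps1, which diverts farnesyl diphosphate towards protein prenylation, was the exception in the first of these, at 31.6 to 38.9 CPM against 42.9 to 51.7 CPM. Between the Lce1-led and the F3/Serpina12-led clusters, 16 of the 19 enzymes were lower in the Lce1-led cluster in every mouse, but so were 73.8% of all genes.

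**Figure D1:**
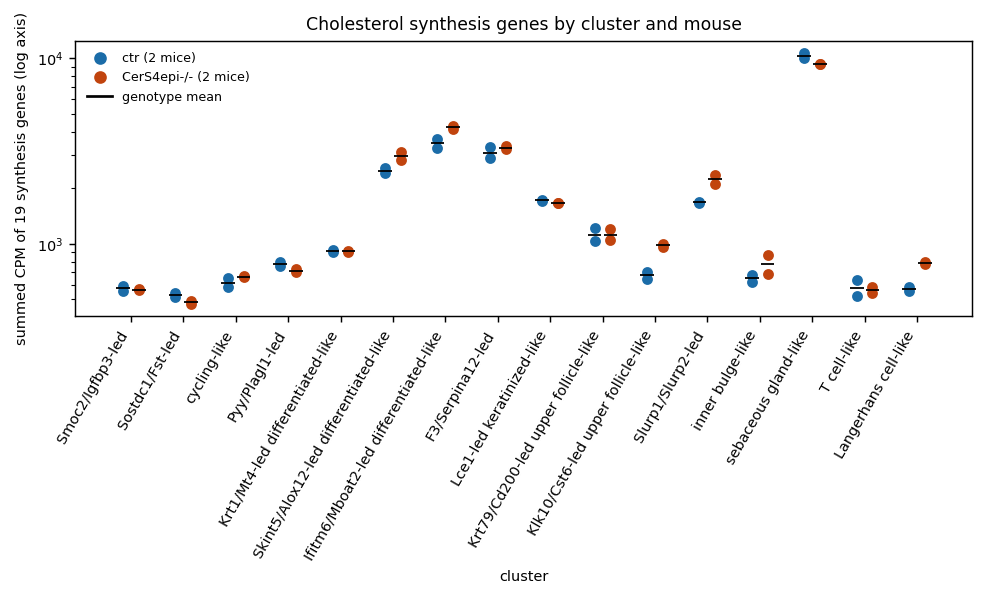
Summed level of the 19 synthesis enzymes (CPM, log y axis) in each of the cell clusters (x axis), 1 point per mouse, colour by genotype and a line at each genotype mean. The Ifitm6/Mboat2-led cluster sits at 3297 to 4315 CPM and the Smoc2/Igfbp3-led cluster at 557 to 595 CPM.

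Among the 15 clusters large enough to be tested, 17 of the 19 enzymes had their highest mean level in the Ifitm6/Mboat2-led cluster (13 enzymes), the F3/Serpina12-led cluster (3) or the Skint5/Alox12-led cluster (1). The steps around squalene were strongly layered. Sqle, which adds oxygen to squalene, was at 338 to 385 CPM over the 4 mice in the Ifitm6/Mboat2-led cluster and at 5.27 to 6.87 CPM in the Smoc2/Igfbp3-led cluster, a 56.9-fold difference of the means. Fdft1, the squalene synthase, reached 221 to 306 CPM in the F3/Serpina12-led cluster against 14.4 to 23.5 CPM in the Smoc2/Igfbp3-led cluster (14.2-fold). Lss, which closes squalene epoxide into lanosterol, was at 56.7 to 90.5 CPM in the Ifitm6/Mboat2-led cluster and lowest in the Lce1-led cluster, at 0.700 to 3.09 CPM.

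Among the mevalonate steps, Fdps, the farnesyl diphosphate synthase, was at 481 to 569 CPM in the Ifitm6/Mboat2-led cluster, 351 to 412 CPM in the Skint5/Alox12-led cluster, 191 to 233 CPM in the F3/Serpina12-led cluster and 14.4 to 18.0 CPM in the Smoc2/Igfbp3-led cluster. Although withheld from the clustering, Fdps was among the 10 leading genes by fold of both the Skint5/Alox12-led and the Ifitm6/Mboat2-led clusters. Mvd, the mevalonate diphosphate decarboxylase, was 45.0-fold and Idi1, the isopentenyl diphosphate isomerase, 11.1-fold higher in the Ifitm6/Mboat2-led than in the Smoc2/Igfbp3-led cluster. Hmgcs1, which makes HMG-CoA, was less layered. It was at 401 to 549 CPM in the Ifitm6/Mboat2-led cluster and at 198 to 237 CPM in the Smoc2/Igfbp3-led cluster, a 2.16-fold difference without overlap, and lowest in the Klk10/Cst6-led cluster at 76.8 to 101 CPM. Acat2, the cytosolic thiolase, was at 45.7 to 93.4 CPM in the Ifitm6/Mboat2-led cluster and overlapped the Skint5/Alox12-led cluster (47.1 to 74.0 CPM). Mvk, the mevalonate kinase, was highest in the Skint5/Alox12-led cluster at 74.4 to 106 CPM. Pmvk, the phosphomevalonate kinase, was at 61.8 to 109 CPM in the Ifitm6/Mboat2-led cluster, which overlapped the Langerhans cell-like cluster (55.9 to 88.3 CPM), and lowest in the Smoc2/Igfbp3-led cluster (4.87 to 6.70 CPM).

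Among these 15 clusters, the enzymes that turn lanosterol into cholesterol were highest in the Ifitm6/Mboat2-led or F3/Serpina12-led cluster, with the exception of Dhcr7. Msmo1, the sterol C4-methyl oxidase, was at 644 to 712 CPM in the F3/Serpina12-led cluster, 520 to 650 CPM in the Ifitm6/Mboat2-led cluster, 207 to 291 CPM in the Skint5/Alox12-led cluster and 14.7 to 20.5 CPM in the Smoc2/Igfbp3-led cluster. Dhcr7, which reduces 7-dehydrocholesterol in the last part of the pathway, was highest in the Lce1-led cluster at 613 to 644 CPM, above 370 to 409 CPM in the F3/Serpina12-led cluster, 158 to 214 CPM in the Ifitm6/Mboat2-led cluster and 22.4 to 30.3 CPM in the Smoc2/Igfbp3-led cluster. Dhcr7 was 1 of 2 enzymes that were higher in the Lce1-led than in the F3/Serpina12-led cluster in every mouse, where 15.8% of all genes were. Cyp51, the lanosterol demethylase, was at 231 to 380 CPM in the Ifitm6/Mboat2-led cluster and 206 to 281 CPM in the F3/Serpina12-led cluster, which overlapped. Hsd17b7 and Sc5d, a sterol ketoreductase and a desaturase, likewise overlapped between these clusters, whereas Tm7sf2 and Nsdhl were higher in the Ifitm6/Mboat2-led cluster than in any other of the 15. Ebp, the sterol isomerase, varied least of these, by 1.85-fold between its highest cluster and the Smoc2/Igfbp3-led cluster.

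**Figure D2:**
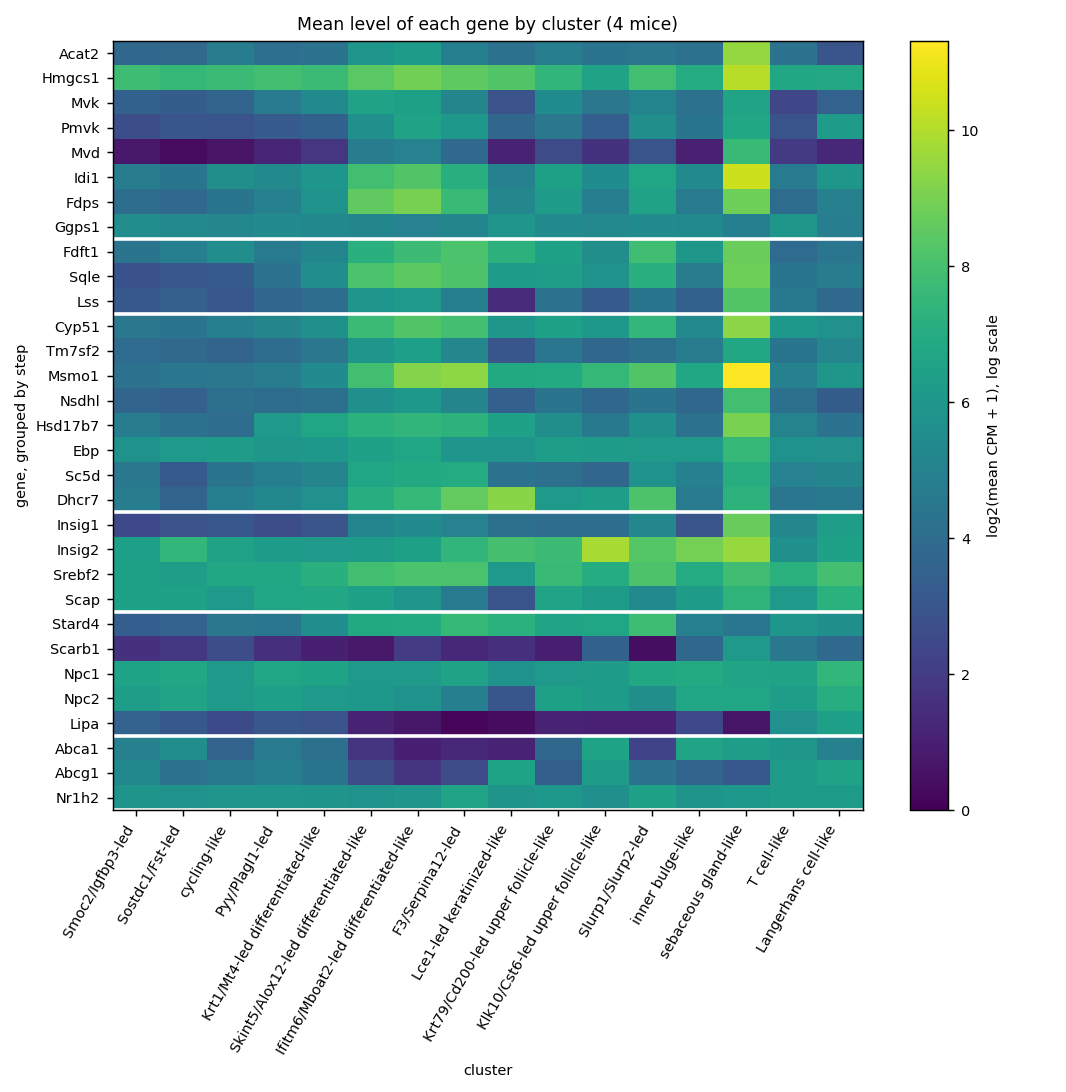
Mean level of each of the 31 genes over the 4 mice (rows, grouped by role) in each cluster (columns), as log2 of mean CPM plus 1. Outside the sebaceous gland-like cluster, most synthesis enzymes are highest in the Ifitm6/Mboat2-led cluster, Dhcr7 in the Lce1-led cluster, and Insig2 in the Klk10/Cst6-led cluster.

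The regulators had their highest means in other clusters of the 15 than the enzymes did, although the Ifitm6/Mboat2-led cluster came second for Srebf2 and Insig1. Srebf2 was highest in the Slurp1/Slurp2-led cluster (246 to 313 CPM), which overlapped the Ifitm6/Mboat2-led (239 to 303 CPM) and F3/Serpina12-led clusters (254 to 277 CPM), and lowest in the Lce1-led cluster (54.3 to 91.3 CPM). Scap was lowest in the Lce1-led cluster too, at 5.92 to 8.10 CPM, and highest in the Langerhans cell-like cluster at 144 to 157 CPM. Insig2 was highest in the Klk10/Cst6-led cluster at 726 to 1115 CPM, with the inner bulge-like cluster, at 231 to 786 CPM, overlapping it. Insig1 was at 20.8 to 72.2 CPM in the Ifitm6/Mboat2-led cluster and 3.35 to 5.69 CPM in the Smoc2/Igfbp3-led cluster, and its highest cluster was the Langerhans cell-like one at 52.5 to 108 CPM.

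Genes of sterol handling differed in where they were highest among these 15 clusters. Stard4, which moves sterol between membranes, was at 180 to 267 CPM in the Slurp1/Slurp2-led cluster, 136 to 242 CPM in the F3/Serpina12-led cluster and 8.55 to 11.5 CPM in the Smoc2/Igfbp3-led cluster. The lysosomal genes Npc1, Npc2 and Lipa were highest in the Langerhans cell-like cluster, and Lipa, the acid lipase, was nearly absent from the F3/Serpina12-led cluster at 0 to 0.419 CPM. Scarb1, a lipoprotein receptor, was highest in the T cell-like cluster at 15.4 to 37.5 CPM. The exporters were low where synthesis enzymes were high in the IFE. Abca1 was at 0.686 to 1.37 CPM in the Ifitm6/Mboat2-led cluster against 24.2 to 35.2 CPM in the Smoc2/Igfbp3-led cluster, and reached 44.5 to 173 CPM in the inner bulge-like and 50.7 to 140 CPM in the Klk10/Cst6-led cluster. Abcg1 was at 1.37 to 3.44 CPM in the Ifitm6/Mboat2-led cluster against 32.1 to 42.3 CPM in the Smoc2/Igfbp3-led cluster, and at 81.6 to 101 CPM in the Lce1-led cluster. Nr1h2, the receptor gene, varied little, with 90.9 to 103 CPM in its highest cluster, the F3/Serpina12-led one.

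The sebaceous gland-like cluster held 12, 3, 26 and 31 cells and was described only. Its summed synthesis level was 10070, 10658, 9353 and 9351 CPM, above every other cluster. Msmo1 was at 3461, 1031, 2593 and 3131 CPM, Idi1 at 1064, 1956, 1255 and 1267 CPM, and Insig1 at 470, 533, 379 and 253 CPM. Stard4 was nearly absent there, with 7 counts in all 4 mice. Sebocytes are known to make large amounts of lipid, including squalene.

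The difference between CerS4epi-/- and ctr mice was tested in each of 15 clusters, on counts summed per mouse, with edgeR's quasi-likelihood test. P-values were adjusted over all genes of the cluster by Benjamini-Hochberg. Levels beside a test are given as normalised CPM, scaled within a cluster by trimmed mean of M values. Nothing in the labels says that the 2 mice of a genotype came from separate litters, so p-values measure the spread between these mice. Of 396 tests of a member in a cluster, 46 (11.6%) passed an adjusted p of 0.05 with higher levels in CerS4epi-/- and 2 (0.505%) with lower levels, where 3.07% and 2.22% of the tests of all genes in these clusters did. The 46 higher calls fell on 22 of the 31 members, and 11 clusters held a call. In the Ifitm6/Mboat2-led cluster 10 of 29 members were higher and 0 lower, by DESeq2 7 and 0, against 3.61% of all genes tested called higher and 1.94% lower. The Klk10/Cst6-led cluster had 8 of 29 higher (5.51% of all genes), the F3/Serpina12-led cluster 7 of 28 (6.19%) and the Skint5/Alox12-led cluster 5 of 28 (1.89%). The Krt79/Cd200-led cluster had 4 of 29 (3.9%), the inner bulge-like cluster 4 of 27 (5.55%), the Lce1-led cluster 3 of 26 (2.83%) and the Slurp1/Slurp2-led cluster 2 of 27 (1.43%). Elsewhere 1 member was called higher in each of the Smoc2/Igfbp3-led (30 tested, 2.28% of all genes), Sostdc1/Fst-led (29, 2.98%) and Krt1/Mt4-led clusters (30, 2.76%), near the share of all genes. The 2 lower calls were in the Sostdc1/Fst-led (3.12% of all genes lower) and inner bulge-like clusters (5.37%). In the other clusters 0 members were called lower by edgeR. All genes were called lower at 4.9% in the F3/Serpina12-led, 4.57% in the Krt79/Cd200-led, 2.98% in the Klk10/Cst6-led, 1.61% in the Lce1-led, 1.42% in the Krt1/Mt4-led, 1.34% in the Pyy/Plagl1-led, 1.31% in the Smoc2/Igfbp3-led, 1.06% in the Skint5/Alox12-led, 0.627% in the Slurp1/Slurp2-led and 0.478% in the IFE cycling-like cluster. In the IFE cycling-like (28 tested), Pyy/Plagl1-led (29), T cell-like (14) and Langerhans cell-like clusters (13), edgeR and DESeq2 both called 0 members, with 5, 3, 1 and 2 at an unadjusted p under 0.05 in edgeR. All genes were called higher there at 1.03%, 2.4%, 0.0223% and 0.127%.

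**Figure D3:**
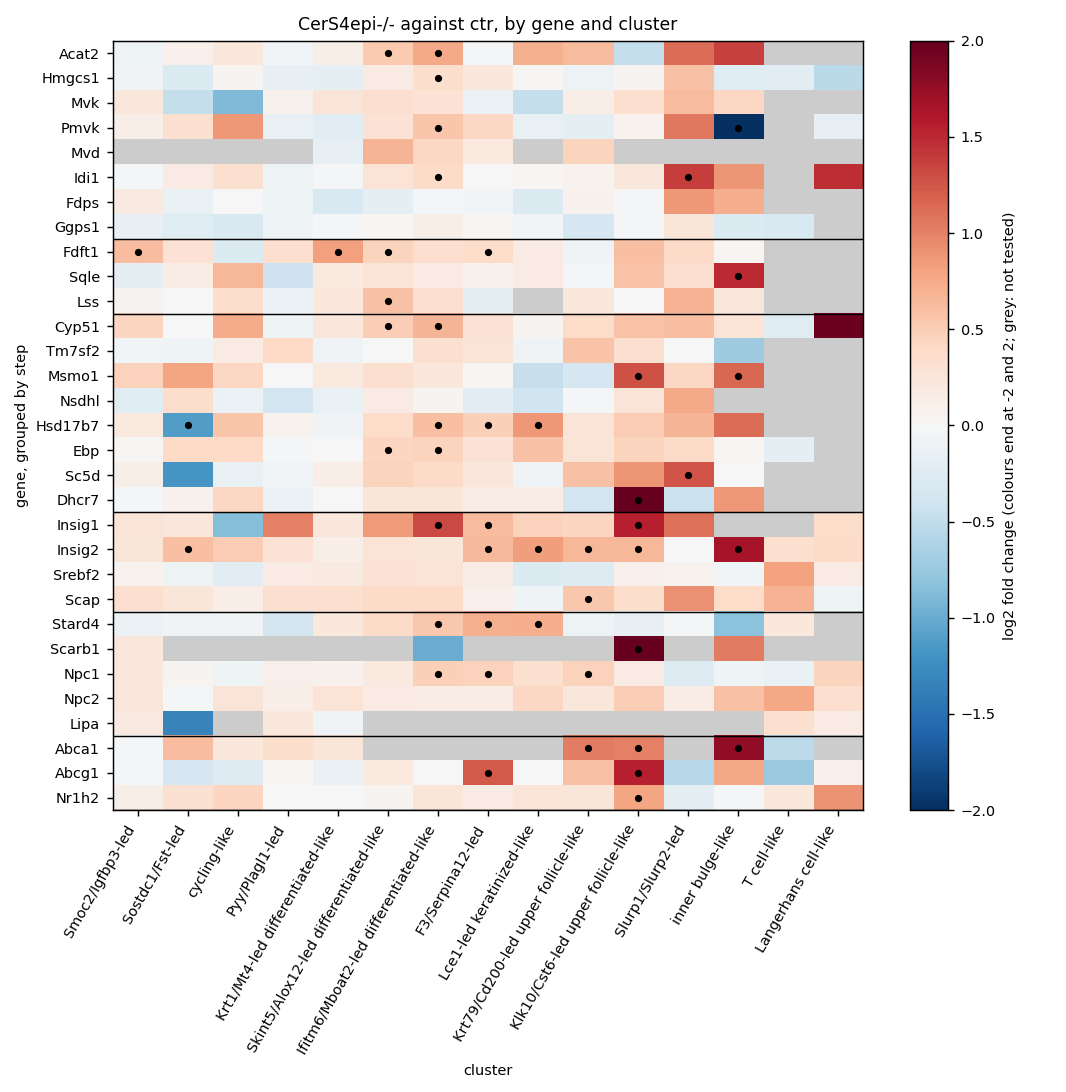
Log2 fold change of each member (rows, by role) between CerS4epi-/- and ctr in each of the 15 tested clusters (columns), colour by size and direction (ending at -2 and 2), grey where not tested, with a dot on those past an adjusted p of 0.05. The dots gather in the Ifitm6/Mboat2-led, Klk10/Cst6-led, F3/Serpina12-led and Skint5/Alox12-led clusters, and the only lower calls are Hsd17b7 in the Sostdc1/Fst-led and Pmvk in the inner bulge-like cluster.

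In the Ifitm6/Mboat2-led and Skint5/Alox12-led clusters most members were at higher values in both CerS4epi-/- mice than in both ctr mice. Of the 29 members tested in the Ifitm6/Mboat2-led cluster, 26 had a log2 fold change above 0, where 49.5% of all genes did, and 22 had both CerS4epi-/- mice above both ctr mice, where 25.6% of all genes did. The median log2 fold change was 0.32 over its members and 0.34 over its 19 synthesis enzymes, of which 7 passed the test. In the Skint5/Alox12-led cluster 26 of 28 were above 0 (49.8% of all genes) and 21 had both CerS4epi-/- mice above both ctr mice (23.9%), with a median of 0.29 and 5 of 19 enzymes past the test. The summed synthesis level was 3484 ± 265 CPM (SD, n = 2) in ctr and 4246 ± 98.1 CPM (SD, n = 2) in CerS4epi-/- in the Ifitm6/Mboat2-led cluster, which is 1.22-fold. It was 2483 ± 112 CPM (SD, n = 2) and 2976 ± 209 CPM (SD, n = 2) in the Skint5/Alox12-led cluster. Such shifts were not particular to these clusters. The member median was 0.45 in the Klk10/Cst6-led, 0.41 in the Slurp1/Slurp2-led, 0.36 in the inner bulge-like and 0.34 in the Langerhans cell-like cluster. It was lowest in the Pyy/Plagl1-led cluster, at 0.0013. The synthesis sum ran from 0.902-fold in the sebaceous gland-like to 1.45-fold in the Klk10/Cst6-led cluster, and was 1.33-fold in the Slurp1/Slurp2-led cluster.

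The mevalonate steps called in the Ifitm6/Mboat2-led cluster were Acat2, Hmgcs1, Pmvk and Idi1. Acat2 was at 45.2 and 62.7 normalised CPM in ctr and 89.6 and 92.9 in CerS4epi-/- (log2 fold change 0.75 ± 0.14 SE, adjusted p = 0.012). Pmvk was at 61.0 and 84.8 in ctr and 106 and 109 in CerS4epi-/- (0.56 ± 0.14, adjusted p = 0.038). In both, the CerS4epi-/- mice lay above the ctr mice and closer together than these. Idi1 was at 249 and 271 in ctr and 336 and 345 in CerS4epi-/- (0.39 ± 0.09, adjusted p = 0.0237). Hmgcs1 was at 396 and 454 in ctr and 540 and 548 in CerS4epi-/- (0.36 ± 0.09, adjusted p = 0.0379). Neither overlapped. Fdps, a leading gene of the cluster, was at 475 and 573 in ctr and 530 and 495 in CerS4epi-/-, which overlapped (-0.03, adjusted p = 0.899).

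Of the steps from squalene to cholesterol, Cyp51, Hsd17b7 and Ebp were called there. Cyp51 (chr5:4123416-4154751) was at 229 and 243 normalised CPM in ctr and 378 in both CerS4epi-/- mice (0.68 ± 0.08, adjusted p = 0.000964), the smallest adjusted p of any member in this cluster. Hsd17b7 was at 126 and 149 in ctr and 201 and 216 in CerS4epi-/- (0.60 ± 0.10, adjusted p = 0.00813). Ebp was at 85.6 and 85.9 in ctr and 120 and 112 in CerS4epi-/- (0.44 ± 0.10, adjusted p = 0.024). The groups did not overlap for any of them, and the gap between genotypes exceeded the gap between mice of 1 genotype. Mvd (0.42, adjusted p = 0.13), Sc5d (0.39, adjusted p = 0.061), Fdft1 (0.34, adjusted p = 0.0653) and Tm7sf2 (0.32, adjusted p = 0.0945) had both CerS4epi-/- mice above both ctr mice and did not pass the test.

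Of the regulators, Insig1 (chr5:28276315-28283668) had the largest fold in this cluster. It was at 20.5 and 28.9 normalised CPM in ctr and 53.1 and 72.0 in CerS4epi-/-, 2.49-fold higher (log2 fold change 1.32 ± 0.19, adjusted p = 0.00233). Stard4 was at 102 and 92.4 in ctr and 134 and 150 in CerS4epi-/- (0.54 ± 0.10, adjusted p = 0.0125). Npc1, the lysosomal cholesterol exporter, was at 57.1 and 58.3 in ctr and 75.0 and 87.2 in CerS4epi-/- (0.48 ± 0.12, adjusted p = 0.0317). All 3 were without overlap. Scap had a log2 fold change of 0.38 (adjusted p = 0.116), with groups that did not overlap.

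In the Skint5/Alox12-led cluster all 5 called members were enzymes. Lss was at 45.4 and 52.7 normalised CPM in ctr and 67.2 and 81.7 in CerS4epi-/- (0.59 ± 0.13, adjusted p = 0.0349). Acat2 was at 47.0 and 52.9 in ctr and 69.8 and 73.7 in CerS4epi-/- (0.52 ± 0.11, adjusted p = 0.0349). Cyp51 was at 170 and 175 in ctr and 228 and 262 in CerS4epi-/- (0.50 ± 0.09, adjusted p = 0.0164). Of these, Acat2 and Cyp51 were called in the Ifitm6/Mboat2-led cluster as well, as was Ebp. Fdft1 was at 114 and 133 in ctr and 162 and 174 in CerS4epi-/- (0.45 ± 0.10, adjusted p = 0.0391). Ebp was at 74.4 and 78.8 in ctr and 108 and 97.7 in CerS4epi-/- (0.43 ± 0.10, adjusted p = 0.0436). None of the 5 overlapped between genotypes. Insig1, at 19.9 and 27.0 against 30.0 and 57.7 (0.85, adjusted p = 0.108), Mvd, at 19.9 and 21.1 against 28.8 and 38.0 (0.68, adjusted p = 0.0531), and Scap, at 77.4 and 75.3 against 102 and 96.9 (0.39, adjusted p = 0.0564), did not pass although their groups did not overlap. The same held for Sc5d (0.45, adjusted p = 0.0716) and Stard4 (0.38, adjusted p = 0.145). Fdps was at 380 and 420 in ctr and 354 and 349 in CerS4epi-/- (-0.19, adjusted p = 0.282).

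Because other partitions joined these 2 clusters, their counts were also summed and tested together, an alternative chosen after seeing the data. In the sum 14 of 30 members were higher and 0 lower, against 4.08% of all genes called higher and 2.61% lower, and 9 of the 14 were also called in 1 of the clusters alone. Cyp51 (0.63, adjusted p = 0.00151), Hsd17b7 (0.50, adjusted p = 0.00647) and Insig1 (1.13, adjusted p = 0.0111) were among these. Msmo1 (0.30, adjusted p = 0.0434), Mvd (0.56, adjusted p = 0.0251), Sc5d (0.43, adjusted p = 0.0274), Scap (0.37, adjusted p = 0.0247) and Srebf2 (0.29, adjusted p = 0.0486) passed in the sum and in neither cluster alone. Hmgcs1 (0.30, adjusted p = 0.0533), Npc1 (0.34, adjusted p = 0.0519) and Lss (0.46, adjusted p = 0.0579) were called in 1 of the clusters and not in the sum.

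The Ifitm6/Mboat2-led cluster held 319 and 393 ctr cells and 262 and 211 CerS4epi-/- cells, with medians of 13441 and 11633 counts against 12898 and 11715. The Skint5/Alox12-led cluster held 484 and 633 ctr cells and 348 and 283 CerS4epi-/- cells, with medians of 9027 and 8403 counts against 9440 and 8686. Marker sums of neighbouring cell types moved with genotype in both. The 10 keratinized-layer markers, all detected, summed to 3941 and 4533 CPM in ctr and 6486 and 6161 CPM in CerS4epi-/- in the Ifitm6/Mboat2-led cluster, and to 376 and 468 CPM against 613 and 722 CPM in the Skint5/Alox12-led cluster. The 10 upper follicle markers, all detected, summed to 3342 and 3061 CPM against 4519 and 3969 CPM in the first and to 536 and 625 CPM against 1299 and 988 CPM in the second. Their part in the result was not tested. The sebaceous gland markers, with Cd36 and Mc5r at 0 in both clusters and Pparg and Elovl3 at 0 in the second, summed to less in CerS4epi-/-. Their sum was 282 and 264 CPM against 350 and 354 CPM in ctr in the first. In the second it was 334 and 371 CPM against 410 and 425 CPM. Nearly all of the sum in the first was Scd1, which was called lower there. In barcodes of 10 to 100 counts, which sample free RNA, Cyp51 was at 94.1 and 89.9 CPM in ctr and 112 and 87.3 CPM in CerS4epi-/-, and Insig1 at 14.1 and 12.9 CPM in ctr and at most 20.2 CPM in CerS4epi-/-. In the Ifitm6/Mboat2-led cluster 4 members were called higher without CerS4epi-/- replicate 1 and 2 without CerS4epi-/- replicate 2. In the Skint5/Alox12-led cluster 0 were called without CerS4epi-/- replicate 2 and 9 without ctr replicate 2.

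**Figure D4:**
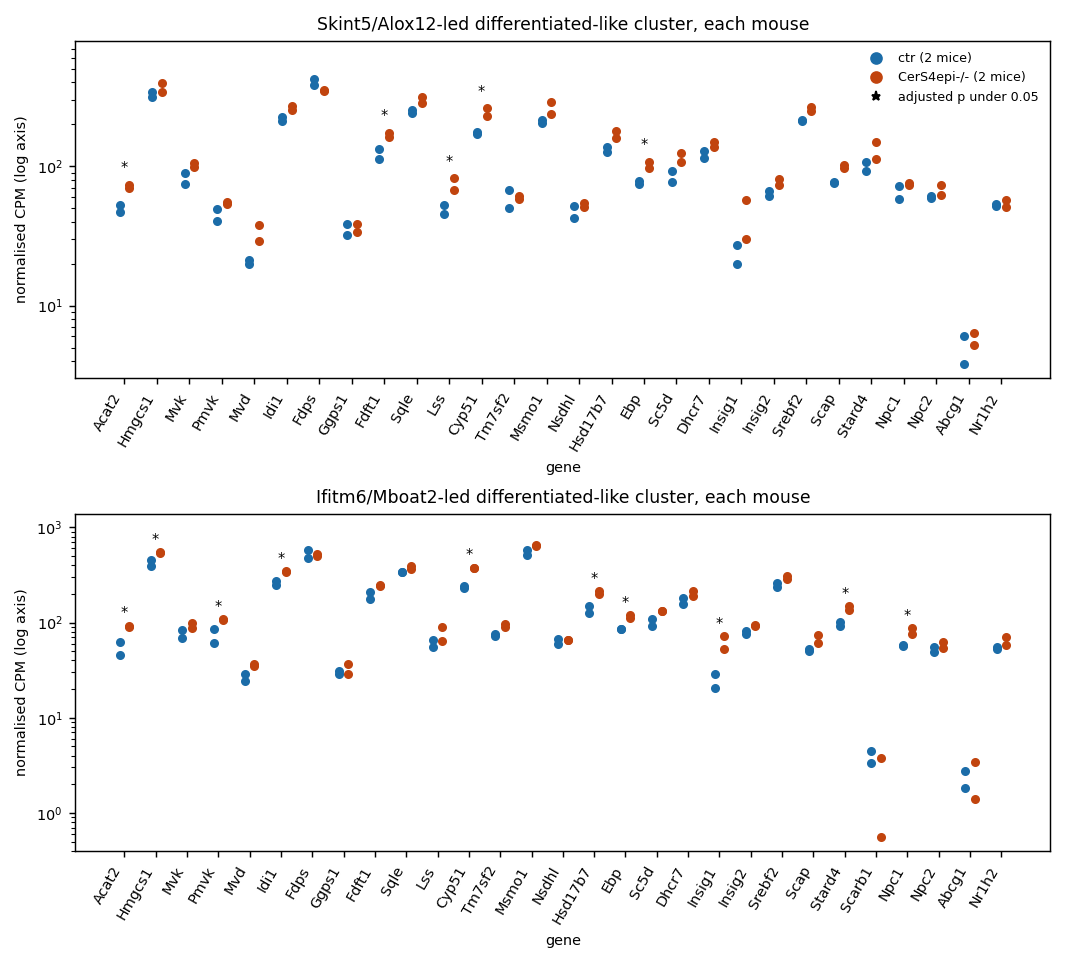
Normalised CPM (log axis) of the members tested in the Skint5/Alox12-led (upper panel, 28 members) and Ifitm6/Mboat2-led cluster (lower panel, 29 members), 1 point per mouse, colour by genotype and a star at an adjusted p under 0.05. For 21 and 22 members both CerS4epi-/- points lie above both ctr points, and for Fdps in the lower panel they overlap.

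In the F3/Serpina12-led cluster the calls included more genes of sterol handling, with 2 of 19 enzymes called and a summed synthesis level of 1.07-fold. Stard4 was at 132 and 162 normalised CPM in ctr and 238 and 245 in CerS4epi-/- (0.71 ± 0.10, adjusted p = 0.00267). Insig2 was at 135 and 140 in ctr and 214 and 216 in CerS4epi-/- (0.65 ± 0.08, adjusted p = 0.00134). Npc1 was at 73.3 and 80.3 in ctr and 108 and 105 in CerS4epi-/- (0.47 ± 0.09, adjusted p = 0.0116). None of the 3 overlapped between genotypes. Abcg1, which exports sterol to lipoprotein particles, was at 3.26 and 2.85 in ctr and 6.91 and 7.37 in CerS4epi-/- (1.22 ± 0.30, adjusted p = 0.0285), and was not called without any 1 of the 4 mice. Insig1 was at 20.1 and 28.4 in ctr and 35.2 and 41.7 in CerS4epi-/- (0.63 ± 0.17, adjusted p = 0.0414). The enzymes called were Hsd17b7, at 114 and 149 then 185 and 184 (0.48 ± 0.12, adjusted p = 0.0271), and Fdft1, at 215 and 270 then 314 and 311 (0.36 ± 0.10, adjusted p = 0.0488). Msmo1, at its highest in this cluster, was at 633 and 708 in ctr and 722 and 654 in CerS4epi-/- (0.04), with overlap. Pmvk (0.41, adjusted p = 0.105), Ebp (0.30, adjusted p = 0.12), Cyp51 (0.29, adjusted p = 0.117), Sc5d (0.22, adjusted p = 0.228) and Hmgcs1 (0.20, adjusted p = 0.152) had groups that did not overlap and did not pass. Keratinized-layer markers summed to 34438 and 37338 CPM in ctr and 44021 and 42915 CPM in CerS4epi-/-, and their part was not tested. Without ctr replicate 1, 2 members were called here instead of 7.

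In the Lce1-led keratinized-like cluster, Insig2 was at 170 and 204 normalised CPM in ctr and 340 and 325 in CerS4epi-/- (0.83 ± 0.14, adjusted p = 0.00815). Hsd17b7 was at 58.6 and 71.5 in ctr and 115 and 121 in CerS4epi-/- (0.86 ± 0.16, adjusted p = 0.0113). Stard4 was at 108 and 121 in ctr and 216 and 162 in CerS4epi-/- (0.73 ± 0.16, adjusted p = 0.0259). Groups did not overlap, and all 3 genes were also called in the F3/Serpina12-led cluster. Dhcr7, at its highest in these cells, was at 586 and 613 in ctr and 678 and 654 in CerS4epi-/- (0.15, adjusted p = 0.568). Msmo1 was at 136 and 130 in ctr and 92.1 and 102 in CerS4epi-/- (-0.46, adjusted p = 0.0935). The summed synthesis level was 0.966-fold, and Acat2 (0.71, adjusted p = 0.168), Ebp (0.58, adjusted p = 0.0728), Mvk (-0.48, adjusted p = 0.529) and Npc2 (0.41, adjusted p = 0.569) did not pass although their groups did not overlap. Without ctr replicate 1, 1 member was called here, and without ctr replicate 2, 0 were.

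In the Slurp1/Slurp2-led cluster the summed synthesis level was 1687 and 1652 CPM in ctr and 2097 and 2356 CPM in CerS4epi-/-, and 2 enzymes were called. Idi1 was at 67.3 and 40.6 normalised CPM in ctr and 127 and 177 in CerS4epi-/- (1.38 ± 0.25, adjusted p = 0.00331). Sc5d was at 26.9 and 43.3 in ctr and 65.3 and 96.9 in CerS4epi-/- (1.25 ± 0.31, adjusted p = 0.0363). Both rose without overlap. Acat2 (1.12, adjusted p = 0.312), Insig1 (1.10, adjusted p = 0.216), Pmvk (1.05, adjusted p = 0.146), Scap (0.91, adjusted p = 0.255) and Fdps (0.86, adjusted p = 0.124) did not pass. The cluster held 167 and 102 ctr cells and 154 and 117 CerS4epi-/- cells, with medians of 3668 and 3012 counts against 5618 and 4486 and upper follicle marker sums of 29185 and 25361 CPM against 32427 and 32802 CPM, and the part of these differences was not tested. Without ctr replicate 2 or CerS4epi-/- replicate 1, 5 members were called here, and other partitions gave 0 to 10.

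In the Klk10/Cst6-led upper follicle-like cluster, regulators, uptake and efflux genes were called beside 2 enzymes. Insig2 (chr1:121181760-121260400) was at 747 and 695 normalised CPM in ctr and 1178 and 1121 in CerS4epi-/- (0.67 ± 0.11, adjusted p = 0.00268). Abca1, the exporter to apolipoprotein, was at 73.8 and 48.5 in ctr and 148 and 111 in CerS4epi-/- (1.01 ± 0.22, adjusted p = 0.0134). Abcg1 was at 29.8 and 51.2 in ctr and 85.1 and 137 in CerS4epi-/- (1.56 ± 0.32, adjusted p = 0.00829). None of these overlapped between genotypes. Nr1h2, the liver X receptor gene, was at 39.7 and 35.0 in ctr and 64.8 and 67.1 in CerS4epi-/- (0.79 ± 0.22, adjusted p = 0.0389). Insig1 was at 8.51 and 8.09 in ctr, from 6 and 3 counts, and 24.6 and 25.1 in CerS4epi-/- (1.56 ± 0.39, adjusted p = 0.0271). Scarb1 was read from 2 counts in ctr and 110 in CerS4epi-/-, a ratio of 9.62 of the pooled CPM (95% exact interval 2.60 to 80.4, counting error only), and was called by the fit (adjusted p = 0.00426). These 6 genes act in sterol sensing, uptake and efflux. The enzymes were Dhcr7, at 32.6 and 21.6 in ctr and 114 and 158 in CerS4epi-/- (2.24 ± 0.27, adjusted p = 0.000224), and Msmo1, at 115 and 108 then 267 and 277 (1.28 ± 0.14, adjusted p = 0.000132). Dhcr7 rested on 23 and 8 counts in ctr and 320 and 428 in CerS4epi-/-. Sc5d (0.88, adjusted p = 0.304), Fdft1 (0.61, adjusted p = 0.19), Sqle (0.57, adjusted p = 0.166), Cyp51 (0.57, adjusted p = 0.18) and Hsd17b7 (0.51, adjusted p = 0.444) did not pass.

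These results rested on few ctr cells. The cluster held 225 and 122 cells of the ctr mice and 580 and 623 of the CerS4epi-/- mice, with medians of 2497 and 2221 counts against 4048 and 3819 per cell. IFE differentiated markers summed to 13554 and 17303 CPM in ctr against 10024 and 9999 CPM in CerS4epi-/-, basal markers to 1981 and 2496 CPM against 3975 and 4556 CPM, and inner bulge markers to 324 and 523 CPM against 2494 and 3816 CPM. Sebaceous gland markers, 10 of 10 detected, summed to 123 and 101 CPM against 192 and 224 CPM. In free RNA, Insig2 was at 89.4 and 91.4 CPM in ctr and 182 and 185 CPM in CerS4epi-/-, and Abca1 at 22.0 and 26.3 CPM against 55.6 and 54.3 CPM. The part of these differences in the result was not tested. Several calls here did not hold across partitions. At a finer resolution of the clustering the log2 fold change of Abca1 was -0.011 and that of Insig1 0.17, and at another random start (seed 2) they were 0.027 and 0.17. Abcg1 passed in 13 of 18 alternatives and Insig2 in 16 of 18, but neither at that resolution or that seed. Insig1 passed in 10 of 17 alternatives and was not called by DESeq2 (adjusted p = 0.32) or without ctr replicate 1 (adjusted p = 0.16). Nr1h2 passed in 8 of 18, with a value of 0.24 at seed 3, and was not called without ctr replicate 1, ctr replicate 2 or CerS4epi-/- replicate 2. Scarb1 was not called by DESeq2 or without ctr replicate 1.

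**Figure D5:**
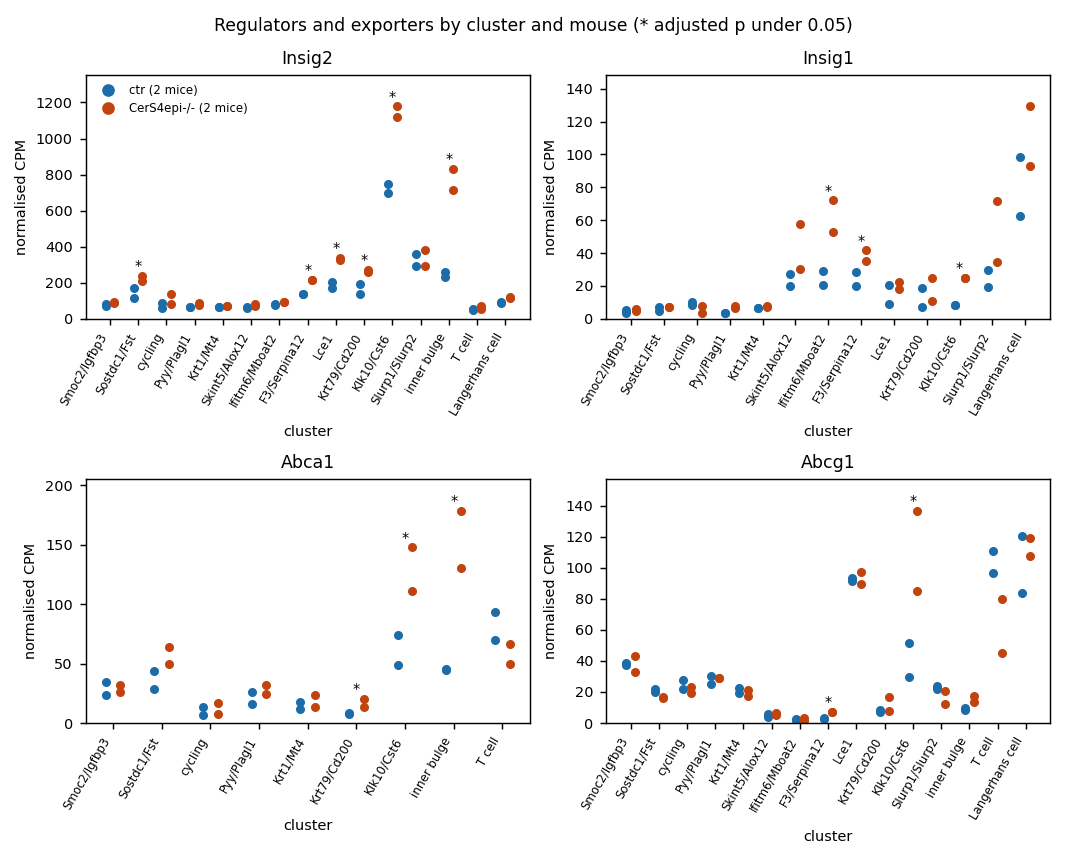
Normalised CPM (linear axis) of Insig2, Insig1, Abca1 and Abcg1 in each cluster in which the gene was tested, 1 point per mouse, colour by genotype and a star at an adjusted p under 0.05. Insig2 in the Klk10/Cst6-led cluster is at 747 and 695 in ctr and 1178 and 1121 in CerS4epi-/-.

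In the Krt79/Cd200-led upper follicle-like cluster, the calls fell on no enzyme. Insig2 was at 194 and 140 normalised CPM in ctr and 271 and 261 in CerS4epi-/- (0.67 ± 0.12, adjusted p = 0.000964). Scap was at 72.2 and 84.9 in ctr and 110 and 118 in CerS4epi-/- (0.54 ± 0.12, adjusted p = 0.00868). Abca1 was at 7.85 and 8.66 in ctr and 13.8 and 20.6 in CerS4epi-/- (1.02 ± 0.31, adjusted p = 0.046). The 3 genes, a sterol sensor, the SREBP escort and an exporter, rose without overlap. Npc1 was at 60.2 and 52.5 in ctr and 79.8 and 74.5 in CerS4epi-/- (0.45 ± 0.13, adjusted p = 0.039). Insig2 passed in 18 of 18 alternatives, Scap in 12 of 18, Npc1 in 9 of 18 and Abca1 in 8 of 18. Scap, Npc1 and Abca1 were not called by DESeq2. Acat2 (0.63, adjusted p = 0.0666), Sc5d (0.59, adjusted p = 0.17), Tm7sf2 (0.58, adjusted p = 0.117), Dhcr7 (-0.39, adjusted p = 0.158) and Cyp51 (0.36, adjusted p = 0.074) had groups that did not overlap and did not pass. In free RNA, Scap was at 83.1 and 87.5 CPM in ctr and 120 and 121 CPM in CerS4epi-/-. IFE differentiated markers summed to 23288 and 26049 CPM in ctr against 18051 and 20186 CPM in CerS4epi-/-, inner bulge markers, 6 of 6 detected, to 542 and 417 CPM against 181 and 256 CPM, and sebaceous gland markers, 8 of 10 detected with Cd36 and Mc5r at 0, to 49.3 and 57.9 CPM against 103 and 107 CPM. The part of these differences in the result was not tested. Without ctr replicate 1, 1 member was called here instead of 4.

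In the inner bulge-like cluster, Insig2 was at 261 and 234 normalised CPM in ctr and 717 and 833 in CerS4epi-/- (1.64 ± 0.19, adjusted p = 8.16e-05), its largest fold in any cluster. Abca1 was at 44.7 and 45.2 in ctr and 178 and 130 in CerS4epi-/- (1.77 ± 0.26, adjusted p = 0.000605). Sqle was at 16.5 and 11.3 in ctr and 32.2 and 47.3 in CerS4epi-/- (1.49 ± 0.43, adjusted p = 0.0385), and Msmo1 at 80.0 and 56.5 against 113 and 192 (1.15 ± 0.29, adjusted p = 0.0222). All 4 rose without overlap. Pmvk fell, from 32.9 and 36.7 in ctr to 3.68 and 9.47 in CerS4epi-/- (-2.35 ± 0.48, adjusted p = 0.00561), on 14, 13, 4 and 11 counts. Acat2 (1.37, adjusted p = 0.104), Hsd17b7 (1.12, adjusted p = 0.146), Idi1 (0.88, adjusted p = 0.148), Dhcr7 (0.86, adjusted p = 0.301) and Stard4 (-0.83, adjusted p = 0.209) did not pass. The cluster held 135 and 106 ctr cells and 259 and 286 CerS4epi-/- cells. At Leiden resolution 1.2, 67.4% of its cells fell in an unnamed Krt6a/Cald1-led cluster of 85 and 56 ctr and 379 and 383 CerS4epi-/- cells, apart from a Krt75-led inner bulge-like cluster of 64 and 57 ctr and 33 and 37 CerS4epi-/- cells. Of the Krt6a/Cald1-led cluster, 58.7% came from the inner bulge-like cluster, and there the log2 fold change was 1.00 for Insig2 and 0.93 for Abca1. IFE differentiated markers summed to 10387 and 12633 CPM in ctr against 4373 and 4019 CPM in CerS4epi-/-, basal markers to 11144 and 10220 CPM against 17549 and 20031 CPM, and sebaceous gland markers, 6 of 10 detected, to 164 and 181 CPM against 339 and 231 CPM. The part of these differences was not tested. Without ctr replicate 2 or CerS4epi-/- replicate 2, 2 members were called higher here instead of 4.

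Across clusters, Insig2 was called higher in 6 and Fdft1 (chr14:63382189-63417027) in 4, more than any other member. Outside the clusters above, Fdft1 was at 26.5 and 25.3 normalised CPM in ctr and 45.9 and 46.0 in CerS4epi-/- in the Krt1/Mt4-led cluster (0.83 ± 0.11, adjusted p = 0.00194) and at 16.6 and 14.3 against 24.1 and 23.1 in the Smoc2/Igfbp3-led cluster (0.62 ± 0.15, adjusted p = 0.0395). Insig2 was at 172 and 118 in ctr and 207 and 239 in CerS4epi-/- in the Sostdc1/Fst-led cluster (0.60 ± 0.15, adjusted p = 0.0275). No group overlapped in these 3 comparisons. Upper follicle markers, 10 of 10 detected, summed to 1945 and 1375 CPM in ctr and 3116 and 3811 CPM in CerS4epi-/- in the Sostdc1/Fst-led cluster, to 331 and 320 CPM against 486 and 604 CPM in the Smoc2/Igfbp3-led cluster and to 294 and 287 CPM against 546 and 469 CPM in the Krt1/Mt4-led cluster. Sebaceous gland markers, 10 of 10 detected, summed to 96.5 and 87.6 CPM against 161 and 219 CPM in the Sostdc1/Fst-led cluster and overlapped in the other 2. IFE differentiated markers, 7 of 7 detected, summed in the Sostdc1/Fst-led cluster to 1379 and 1672 CPM against 992 and 1064 CPM. The part of these differences in the result was not tested. Hsd17b7 fell in the Sostdc1/Fst-led cluster, from 22.1 and 27.2 to 9.59 and 12.9 (-1.12 ± 0.27, adjusted p = 0.0258), while it rose in 3 clusters of the upper IFE. This fall passed in 9 of 18 alternatives. Insig2 in the same cluster passed in 11 of 18 and Fdft1 in the Smoc2/Igfbp3-led cluster in 10 of 18. None of these calls passed by DESeq2 or with equal cell numbers. The log2 fold change of Insig2 was above 0 in all 15 clusters, from 0.0023 to 1.64. In free RNA, Insig2 was at 89.4 and 91.4 CPM in ctr and 182 and 185 CPM in CerS4epi-/-, and the part of this was not tested. In the Smoc2/Igfbp3-led cluster, Msmo1 (0.45, adjusted p = 0.123), Cyp51 (0.43, adjusted p = 0.114), Scap (0.34, adjusted p = 0.134), Nsdhl (-0.24, adjusted p = 0.565) and Insig2 (0.24, adjusted p = 0.276) did not pass. Mvk, Mvd, Fdps, Ggps1, Tm7sf2, Nsdhl, Srebf2, Npc2 and Lipa were called in none of the 15 clusters.

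Among members that did not pass, the largest fold changes with groups that did not overlap took both signs in the clusters that follow, as they did in the Lce1-led cluster. In the Sostdc1/Fst-led cluster they were -1.34 for Lipa, -1.18 for Sc5d, 0.79 for Msmo1, 0.61 for Abca1 and -0.34 for Abcg1 on the log2 scale, with adjusted p from 0.0731 to 0.511. In the IFE cycling-like cluster they were -0.88 for Mvk, 0.86 for Pmvk, -0.86 for Insig1, 0.73 for Cyp51 and 0.66 for Sqle. In the Pyy/Plagl1-led cluster they were 1.01 for Insig1, -0.41 for Sqle, 0.39 for Tm7sf2, -0.37 for Stard4 and 0.32 for Scap, and in the Krt1/Mt4-led cluster 0.34 for Scap, -0.31 for Fdps, 0.27 for Npc2, 0.26 for Mvk and 0.23 for Insig1. Scap, the SREBP escort, was thus above 0 without overlap in both of the latter clusters.

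In the T cell-like and Langerhans cell-like clusters, which do not descend from cells with the Cre, the spread between mice was wide for single members. The summed synthesis level in Langerhans cell-like cells was 553 and 582 CPM in ctr and 773 and 793 CPM in CerS4epi-/-, which is 1.38-fold. Their median log2 fold change was 0.34 over 13 tested members and 0.0043 over all genes. In T cell-like cells the sum was 520 and 637 CPM against 583 and 542 CPM, with a member median of 0.042. The cause was not tested. In T cell-like cells the largest values were 0.81 for Srebf2, 0.78 for Npc2, -0.75 for Abcg1, -0.52 for Abca1 and -0.21 for Hmgcs1. Cyp51 was at 27.3 and 20.9 normalised CPM in ctr and 79.0 and 119 in CerS4epi-/- Langerhans cell-like cells (1.96 ± 0.58, adjusted p = 0.675), and Idi1 at 43.7 and 31.3 against 136 and 86.0 (1.47 ± 0.49, adjusted p = 0.826), with 0.90 for Nr1h2, -0.53 for Hmgcs1 and 0.44 for Npc1. The Langerhans cell-like cluster held 39 to 74 cells per mouse.

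Whether the genotype effect differed between cell classes was tested as an interaction, with the mouse as a block. Between all IFE differentiated-like cells and the Smoc2/Igfbp3-led cluster, 0 of 31 members passed by edgeR (5 at an unadjusted p under 0.05), against 2.18% of all genes. Of the counts of this differentiated-like class, the Skint5/Alox12-led cluster gave 28.7% and 30.8% in ctr and 22.7% and 24.0% in CerS4epi-/-. The Ifitm6/Mboat2-led cluster gave 26.7% and 26.5% against 23.8% and 25.3%, and the Krt1/Mt4-led cluster the rest. The part of this mixture was not tested, and the Ifitm6/Mboat2-led cluster was not contrasted alone. Between the Skint5/Alox12-led and Smoc2/Igfbp3-led clusters, 0 of 31 passed (8 at an unadjusted p under 0.05), against 1.69% of 12147 genes. Between the Skint5/Alox12-led and Lce1-led clusters 0 of 28 passed (6 at an unadjusted p under 0.05), against 0.34% of all genes, and the nearest was Msmo1, with a difference of 0.72 in log2 fold change (adjusted p = 0.111). The calls in the differentiated-like clusters are therefore not shown to be particular to them. Between the upper follicle-like cells and the Smoc2/Igfbp3-led cluster 5 of 31 passed, against 5.39% of all genes. Abcg1 (2.06 ± 0.24, adjusted p = 2.24e-05), Abca1 (1.78 ± 0.27, adjusted p = 0.000454) and Insig2 (1.06 ± 0.14, adjusted p = 9.14e-05) had a larger fitted genotype effect in the summed upper follicle-like cells, and Fdft1 a smaller one (-0.69 ± 0.19, adjusted p = 0.0411). For Abcg1, Abca1 and Insig2 the difference exceeded the log2 fold change in either upper follicle-like cluster alone. Scarb1 also passed (adjusted p = 0.00968), but with 1 and 1 counts in the ctr mice in the Klk10/Cst6-led cluster and 2 and 0 in the Krt79/Cd200-led cluster its fitted difference of 3.09 depends on the fit and is no measured fold. The Klk10/Cst6-led cluster gave 26.0% and 17.1% of the counts of the upper follicle-like class in ctr and 44.6% and 53.8% in CerS4epi-/-, and the Krt79/Cd200-led cluster gave the rest. The part of this mixture in the interaction was not tested.

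Other genes of the same lipid programs were read from lists of fatty acid synthesis, isoprenoid use and sterol traffic. Of 10 fatty acid genes in 129 tests, 11 were higher (8.53%) and 8 lower (6.20%), against the 3.07% and 2.22% of all genes, and Scd2 alone gave 9 of the 11. Scd2 encodes a stearoyl-CoA desaturase. In the Ifitm6/Mboat2-led cluster it was at 68.4 and 66.5 normalised CPM in ctr and 182 and 215 in CerS4epi-/- (1.55 ± 0.11, adjusted p = 2.17e-05), and in the Skint5/Alox12-led cluster at 34.8 and 45.0 against 121 and 155 (1.77 ± 0.15, adjusted p = 0.000122). Fasn, the fatty acid synthase, rose in the Ifitm6/Mboat2-led cluster from 54.4 and 62.1 to 80.6 and 81.5 (0.47 ± 0.11, adjusted p = 0.0314). The desaturase Scd1, also a sebaceous gland marker, fell there from 342 and 352 to 282 and 260 (-0.36 ± 0.09, adjusted p = 0.0344), so that the desaturase genes moved in opposite directions. Scd1 was lower in the F3/Serpina12-led (-0.68 ± 0.10, adjusted p = 0.00321) and inner bulge-like clusters as well. Me1 and Elovl6 were lower in the Pyy/Plagl1-led and Krt79/Cd200-led clusters and Elovl5 in the inner bulge-like cluster, and Acss2 was higher in the Krt79/Cd200-led cluster. Of 10 genes of isoprenoid branches in 120 tests, 1 was higher and 1 lower (0.833% each). Nus1 was higher in the inner bulge-like cluster (1.33 ± 0.37, adjusted p = 0.033) and Coq2 lower in the F3/Serpina12-led cluster (-0.32 ± 0.09, adjusted p = 0.0419).

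Of 21 genes of SREBP processing and sterol traffic in 219 tests, 11 were higher (5.02%) and 3 lower (1.37%), against 3.07% and 2.22% of all genes. Cyp27a1, a mitochondrial sterol hydroxylase gene, accounted for 5 of the 11. It was at 38.8 and 17.2 normalised CPM in ctr and 105 and 121 in CerS4epi-/- in the Sostdc1/Fst-led cluster (1.94 ± 0.23, adjusted p = 0.000216) and at 11.5 in both ctr mice against 50.8 and 61.2 in the Krt79/Cd200-led cluster (2.26 ± 0.21, adjusted p = 3.65e-07). Stard5, a sterol transfer protein gene, was at 42.2 and 42.6 in ctr and 93.0 and 122 in CerS4epi-/- in the Sostdc1/Fst-led cluster (1.34 ± 0.18, adjusted p = 0.000526), and was also called higher in the Krt79/Cd200-led cluster. Vldlr, a lipoprotein receptor, was at 7.14 and 5.55 in ctr and 12.1 and 13.2 in CerS4epi-/- in the Smoc2/Igfbp3-led cluster (0.99 ± 0.21, adjusted p = 0.0241) and was higher in the Krt1/Mt4-led cluster too. Osbpl9 was higher in the Smoc2/Igfbp3-led and Gramd1c in the Lce1-led cluster. Pgrmc1 was lower in the F3/Serpina12-led and Lce1-led clusters and Gramd1b in the Klk10/Cst6-led cluster.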

How the data were processed

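Cell barcode by gene tables of expected counts were deposited by the authors, 1 per mouse. The authors trimmed reads with fastp 0.23.2 and aligned them with STARsolo (STAR 2.7.10a) to GRCm39 with Gencode annotation, counting exonic and intronic reads of the sense strand, with reads that match several places divided by expectation maximisation, so that counts of a gene with near-identical copies are estimates. Percent mitochondrial counts were computed here from the deposited counts. After the study's limits, barcodes needed a minimum of 1200 counts and no more than 20% of them mitochondrial, which left fewer cells than the study states. Scrublet marked 3 cells, a share too small to have worked, so after their removal doublets were taken as still present among the 34150 cells.

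Cells were normalised with scran 1.30.0, aligned across mice with Harmony and clustered by Leiden at resolution 0.8 (3000 variable genes, 100 components in double precision, scanpy 1.11.5), with the 31 members left out. Double precision was chosen so that the clusters repeat exactly, after results of an earlier single-precision partition had been seen. A cluster was called like a cell type where a fixed marker list led, at least 3 of its markers were detected and no other list had more markers among the 10 leading genes. The Smoc2/Igfbp3-led cluster stood for the basal class in the interaction tests. Counts were summed per cluster and mouse and rounded, and clusters with at least 5 cells and 50000 counts in every mouse were fitted with edgeR 4.0.16 (TMM, filterByExpr, glmQLFit and glmQLFTest, two-sided, Benjamini-Hochberg over all genes of the cluster, threshold 0.05). The sebaceous gland-like cluster missed this minimum of cells. The mouse was the replicate, with 2 mice per genotype, and random parts of 1 mouse's cells, which the study tested with DESeq2, were not used as replicates. In addition, no source gives the processing day. The paper calls its animals littermates without saying which of these mice shared a litter. DESeq2 1.42.0 over mice was an alternative. The fit was checked on simulated counts of 6 clusters. Of simulated log2 changes of 0.5 it called 42.0% in the F3/Serpina12-led, 28.3% in the Ifitm6/Mboat2-led and 24.0% in the Skint5/Alox12-led cluster. The share was 9.71% in the Lce1-led, 4.12% in the Klk10/Cst6-led and 1.96% in the Slurp1/Slurp2-led cluster. Of changes of 1 it called 37.9% to 75.0%, and of unchanged genes 0.0327% to 0.1425%. A member that did not pass is therefore not shown to be unchanged.

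The members and lists were chosen with earlier results of these data known. The text names every member past the threshold with its values and, in each cluster, up to 5 further members of largest fold whose groups do not overlap. Of the other pathway genes it names those past the threshold. Clusters of an alternative were matched to the main clusters by shared cells, and pairs sharing under 50% were left out, a limit chosen after seeing the data, as were the contrasts with the Skint5/Alox12-led cluster alone. Promoter windows were RefSeq's (table of GRCm38.p6), located in GRCm39 by exact match.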

Additional observations from a re-analysis of the deposited data

Results flagged for a closer look

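The genotype effect differed between cell classes, by the interaction test and an adjusted p under 0.05, for 5 members. Relative to the Smoc2/Igfbp3-led cluster, the log2 fold change in the summed upper follicle-like cells was larger by 2.06 for Abcg1, 1.78 for Abca1 and 1.06 for Insig2, and differed by -0.69 for Fdft1. For Scarb1 the fitted difference was 3.09, which rests on 4 counts in the ctr upper follicle-like cells and is no measured fold. The Klk10/Cst6-led and Krt79/Cd200-led clusters were summed for this test, and their shares of the sum differed between genotypes. The part of these shares in the differences was not tested.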

How the results depend on the processing

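Of 803 values of the 48 calls under 19 alternatives, 634 kept their direction and passed the threshold, 168 kept their direction without passing it, and 1 reversed, Abca1 in the Klk10/Cst6-led cluster at Leiden resolution 1.2 (log2 fold change -0.011). Calls that passed under every alternative in which they could be fitted were Fdft1 in the Krt1/Mt4-led cluster, Insig1 and Cyp51 in the Ifitm6/Mboat2-led cluster, Stard4 in the F3/Serpina12-led cluster, Dhcr7 and Msmo1 in the Klk10/Cst6-led cluster, Abca1 in the inner bulge-like cluster, and Insig2 in the F3/Serpina12-led, Krt79/Cd200-led and inner bulge-like clusters. The total of 46 higher calls became 26 with DESeq2 and 30 to 51 without 1 mouse, lowest without ctr replicate 1. The 2 lower calls became 5 with the replicate block, 1 with DESeq2, equal cell numbers, at most 10% mitochondrial counts, Leiden seed 4 or resolution 1.2, 0 with Leiden seed 3 or no Harmony, and 1 to 4 without 1 mouse. In the Skint5/Alox12-led cluster the 5 higher calls became 14 with the Ifitm6/Mboat2-led cluster summed in, 11 with no filter on low counts or Leiden seed 3, 16 with the replicate block, 1 with DESeq2, 12 with Leiden seed 2 or no Harmony, 13 with Leiden seed 4 or the members not held out, and 0 to 9 without 1 mouse. The Ifitm6/Mboat2-led cluster had no separate match under the 3 other seeds, no Harmony or the members not held out, and its 10 became 18 with the replicate block and 2 to 14 without 1 mouse. Without 1 mouse the 7 of the F3/Serpina12-led cluster became 2 to 8 and the 3 of the Lce1-led cluster 0 to 4. In the Krt79/Cd200-led cluster the 4 became 1 with DESeq2 or Leiden seed 2, 2 with at least 2000 counts per cell, Leiden seed 3 or seed 4, and 1 to 5 without 1 mouse. In the Klk10/Cst6-led cluster the 8 became 4 with no filter on low counts or equal cell numbers, 5 with DESeq2, 3 with Leiden seed 2 or resolution 1.2, and 6 to 8 without 1 mouse. In the Slurp1/Slurp2-led cluster the 2 became 5 with no filter, the replicate block or Leiden seed 2, 1 with DESeq2, 4 with equal cell numbers, 7 with Leiden seed 3, seed 4 or resolution 1.2, 10 with no Harmony, 0 with the members not held out, and 2 to 5 without 1 mouse. In the inner bulge-like cluster the 4 became 2 with DESeq2, 9 with Leiden seed 2, 10 with Leiden seed 4, and 2 to 6 without 1 mouse, and this cluster had no match with Leiden seed 3 or no Harmony. Among the interactions, the 0 of the IFE differentiated-like and of the Skint5/Alox12-led contrast with the Smoc2/Igfbp3-led cluster became 0 to 1 without 1 mouse, and the 5 of the upper follicle-like contrast 3 to 5. The cause was not tested. Same-numbered mice of the 2 genotypes are not said to share a litter or a processing day. Deviations from the genotype means correlated at -0.0602 to 0.129 between same-numbered mice, and the replicate block moved the 46 higher calls to 77. The T cell-like and Langerhans cell-like clusters held the fewest cells of those tested, and the sebaceous gland-like cluster, with 3 cells in 1 ctr mouse, was not tested.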
